A study of Mus musculus with 5 samples.

Results

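Il2, the chains of its receptor and the receptor chains of the related cytokines were followed across colitic and naive CD4+ T cells. The members were taken as 8 listed genes, Il2, Il2ra, Il2rb, Il2rg, Il7r, Il4ra, Il21r and Il15ra, and were found as the probe sets annotated with that gene symbol alone. In all, 7 of the 8 genes had such a probe set, with 13 probe sets between them, out of 18193 genes and 34945 probe sets with a single symbol. Il2rg was not analysed here.

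Gene expression had been measured on 5 Affymetrix GeneChip mouse genome arrays. CXCR6+ cells (labelled CXCR6 Hi, n = 2) and CXCR6- cells (labelled CXCR6 Lo, n = 2) were CD3+CD4+ T cells sorted from the colonic lamina propria (LP) of Rag1-/- mice with colitis, 6 weeks after they received CD4+CD45RBhigh T cells of BALB/c mice. Mice were used at 8 to 12 weeks of age. Binding of a CXCL16-Fc fusion protein marked the CXCR6+ cells. The comparator was 1 array of naive CD45RBhigh CD4+ T cells of healthy BALB/c mice, which the methods take from the spleen and whose labels name both spleen and LP. All groups thus derive from BALB/c mice, and both LP groups share the lymphopenic host and the colitis, which the naive cells had not met. LP cells were released with collagenase while spleens were disrupted mechanically. A Rag1-/- host has no T or B cells of its own but keeps its innate lymphoid and myeloid cells. Naive cells for transfer were sorted as CD25-, CD25 being the protein of Il2ra. The LP subsets used for retransfer were sorted as CD25- as well. It is not given in the sources used here whether the cells on the arrays, LP or naive, were gated in that way. The labels call the arrays biological replicates and the number of mice behind each is not stated. The p-values below thus reflect no more than the spread between arrays within the LP groups, since 1 naive array has no spread of its own. Precision is limited by the small number of arrays.

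IL-2 is a growth factor that activated T cells make and use. Its receptor is built from an alpha chain (Il2ra, CD25), which raises affinity, a beta chain (Il2rb, CD122), which IL-15 also uses, and the common gamma chain (Il2rg), which is shared with the receptors of IL-4, IL-7, IL-9, IL-15 and IL-21. The beta and gamma chains bind the kinases JAK1 and JAK3, which activate STAT5 and other STAT proteins. In CD4+ T cells IL-7 sustains naive and memory cells, while CD25 is raised on activated cells and is constitutively high on Foxp3+ regulatory T cells.

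The promoters of 3 members are shown, that of Il2ra because its level separated the LP subsets and those of Il2 and Il7r because lists of their known regulators were read. They run from 250 bases before to 50 bases after the annotated start and are written in the direction of the gene. For Il7r that start lies inside the gene coordinates given below and not at their upstream end (chr15:9529941). Its motif positions are counted from that inner start. Capitals mark matches, on either strand, to any of 6 motifs that were searched, namely the NFAT core GGAAA, the AP-1 site TGANTCA, the CRE half-site TGACG, the ZEB E-box CACCT, the ETS core GGAAG and the STAT site TTCNNNGAA. The sequences are those of RefSeq on build GRCm38.p6, whose promoter table held 7 of the 8 listed genes.
Il2, chr3:37125905-37126204, minus strand: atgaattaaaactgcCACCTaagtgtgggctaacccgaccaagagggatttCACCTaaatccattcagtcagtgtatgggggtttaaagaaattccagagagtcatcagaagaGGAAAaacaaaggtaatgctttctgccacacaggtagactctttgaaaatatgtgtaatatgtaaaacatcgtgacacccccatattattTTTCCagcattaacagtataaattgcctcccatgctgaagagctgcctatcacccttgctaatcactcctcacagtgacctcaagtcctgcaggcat
Il2ra, chr2:11642542-11642841, plus strand: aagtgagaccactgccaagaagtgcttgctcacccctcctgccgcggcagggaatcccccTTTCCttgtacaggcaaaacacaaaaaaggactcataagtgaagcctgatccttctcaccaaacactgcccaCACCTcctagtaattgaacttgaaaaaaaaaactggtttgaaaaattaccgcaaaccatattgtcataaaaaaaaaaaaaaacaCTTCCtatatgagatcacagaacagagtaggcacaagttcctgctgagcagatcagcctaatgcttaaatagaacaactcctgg
Il7r, chr15:9529827-9530126, minus strand: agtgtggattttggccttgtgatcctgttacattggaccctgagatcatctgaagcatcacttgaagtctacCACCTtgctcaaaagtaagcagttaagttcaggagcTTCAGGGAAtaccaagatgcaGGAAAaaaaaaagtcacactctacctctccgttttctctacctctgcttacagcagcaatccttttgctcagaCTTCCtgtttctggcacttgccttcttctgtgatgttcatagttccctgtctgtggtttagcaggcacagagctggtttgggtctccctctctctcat
The Il2 promoter held 2 NFAT cores, at -137 and -47 from the start, and 2 ZEB E-boxes, at -235 and -199, and no match to the strict AP-1 or CRE letters. The Il2ra promoter held 1 NFAT core, 1 ZEB E-box and 1 ETS core, and the ETS core lay at -34. The Il7r promoter held 1 match each to the NFAT, ZEB and ETS letters and 1 STAT site, at -142. Of 32851 promoters of the same length, 61.3% held an NFAT core, 51.9% a ZEB E-box, 71.4% an ETS core, 8.3% a STAT site, 7.81% an AP-1 site and 20.8% a CRE half-site. These matches are descriptions of letters and were not tested for binding. No matches overlapped in the 3 promoters printed.

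The deposited values are linear signals scaled by the authors to a median of 1 on each array. Pairs of LP arrays correlated across genes at a Spearman's rho of 0.951 to 0.957, and pairs of 1 LP and the naive array at 0.821 to 0.826. The highest signal was 474 to 588 in LP cells against 268 in naive cells, and the added Dap control RNA read 95.5 to 139 against 0.191. Cxcr6 itself read 184 and 225 in CXCR6+ cells, 58.1 and 25.3 in CXCR6- cells and 10.5 in naive cells. The 7 measured T cell markers summed to 566 to 768 in LP cells and 524 in naive cells, and of them Cd3d and Cd3e were lower, Cd28 was higher and 4 did not pass. Markers of other cells were present as well: the B cell list summed to 4.38 to 5.32 in LP cells and 174 in naive cells over 7 genes, 4 of which were under a signal of 1 on every LP array, and the macrophage, monocyte and dendritic cell list to 255 to 332 and 94.9 over 9 genes. Of 10 epithelial genes, Krt8 and Krt18 were higher and Car1 lower in LP cells, with a median log2 difference of 1.81, and their sum of 42.2 to 84.3 against 105 was set on the naive array by Car1 (85.2). The fibroblast and smooth muscle list summed to 95.2 to 154 against 10.6 over 8 genes, and the CD8 list to 1.81 to 5.09 against 3.44 over 2 genes.

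Between colitic LP and naive T cells, Il21r and Il7r were higher in the colitic LP, whereas Il2rb and Il4ra were lower. In all, 4 of the 7 measured members passed an adjusted p of 0.05 (limma, Benjamini-Hochberg over all genes), 2 in each direction. Of all genes, 15.1% were higher and 18.8% lower in LP cells at that threshold. At an unadjusted p under 0.05, 6 members differed, but the share of all genes at that threshold was not counted, so this says nothing particular to the members. The naive array lay outside the range of the LP arrays for 6 of the 7 members, which it also did for 75.9% of all genes. The median log2 difference of the members was -0.51, beside -0.14 over all genes. In fits without 1 LP array, which leave 1 array in a subset, the calls did not hold. Such fits called far fewer genes, or none, over the whole array too, so this says nothing particular to the members. In them the log2 difference was -2.371 to -1.913 for Il2rb, 1.411 to 1.505 for Il7r, -1.386 to -1.248 for Il4ra and 1.754 to 1.935 for Il21r. With quantile normalization only Il21r passed, beside 2770 of 18193 genes higher and 2308 lower.

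**Figure D1:**
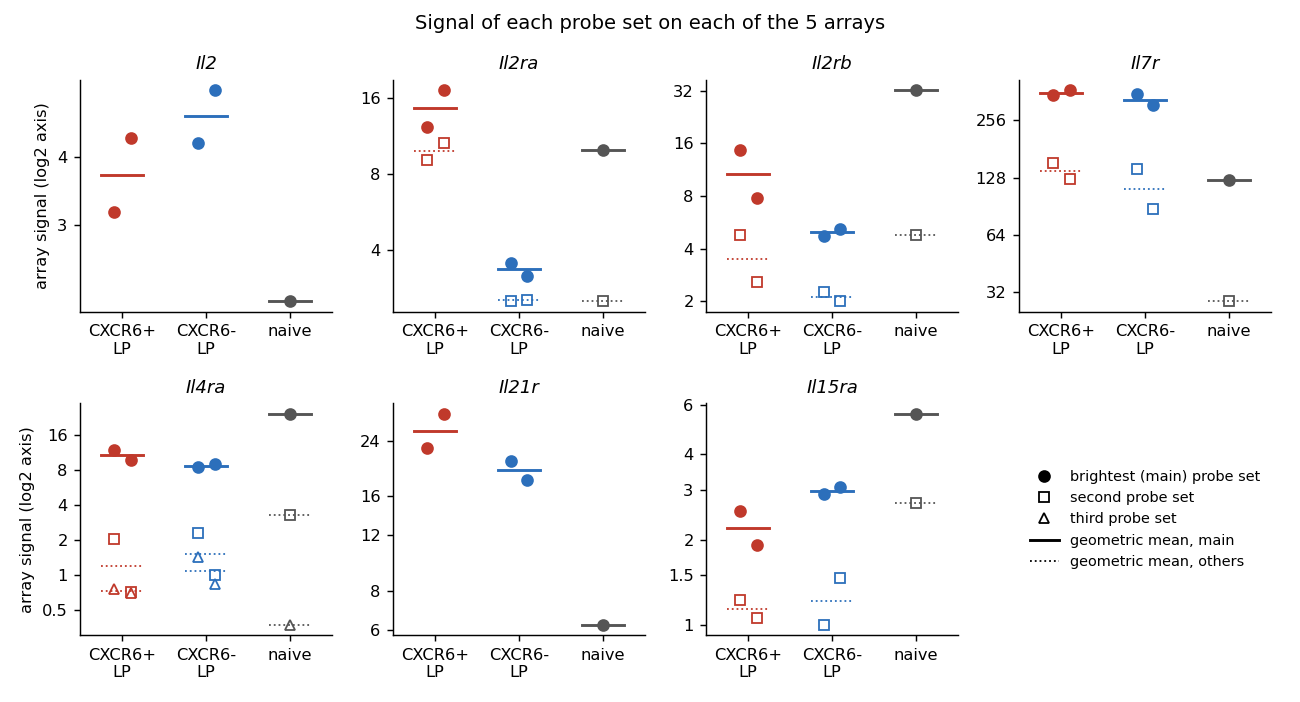
Signal of each of the 13 probe sets on each array, on a log2 axis with its own range in each panel. Points are single arrays, filled for the main probe set, and horizontal lines are geometric means. Il7r and Il21r lie higher on all LP arrays than on the naive array, while Il2rb, Il4ra and Il15ra lie highest on the naive array in their main probe sets. Il2ra splits the CXCR6+ from the CXCR6- arrays in both probe sets.

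Il2, the cytokine itself (chr3:37120713-37125954, GRCm38.p6), gave low signals. It read 3.17 and 4.33 in CXCR6+ cells, 4.25 and 5.30 in CXCR6- cells and 2.18 in naive cells. All LP arrays were above the naive array and the LP subsets overlapped. The log2 difference between LP and naive cells was 0.95 (SE 0.33) and did not pass (adjusted p = 0.102 by limma). Between the subsets it was -0.36, with a 95% confidence interval of -1.20 to 0.48, so that this interval includes a lower Il2 signal in CXCR6+ cells by more than 1 log2 unit as well as no difference. CXCR6- cells read highest and naive cells lowest, and neither LP subset differed from the naive array past the threshold (adjusted p = 0.0927 for CXCR6- cells).

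Il2ra, the alpha chain (chr2:11642792-11693194), was the member that differed most between the LP subsets. Its brighter probe set read 12.3 and 17.2 in CXCR6+ cells, 3.58 and 3.18 in CXCR6- cells and 9.96 in naive cells. Both CXCR6+ arrays were thus above the naive array and both CXCR6- arrays below it. The other, dimmer probe set read 9.14 and 10.7 in CXCR6+ cells, 2.52 and 2.55 in CXCR6- cells and 2.52 in naive cells. There the naive array lay at the level of the CXCR6- arrays. The probe sets thus gave the same order of the LP subsets and a different place for naive cells.

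The log2 difference of Il2ra between CXCR6+ and CXCR6- cells was 2.11 (SE 0.28, 95% confidence interval 1.30 to 2.92), a fold of 4.31. With the other probe set it was 1.96, a fold of 3.89. The unadjusted p was 0.00233 and the adjusted p 0.525, so that the difference did not pass over all genes. Il2ra ranked at 167 of 18193 genes from the highest CXCR6+ over CXCR6- difference, and 2.33% of genes had a larger absolute difference. The difference ranged from 1.87 to 2.35 when 1 LP array was left out.

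Against naive cells the call for Il2ra turned on the probe set. By the main probe set, CXCR6- cells were lower by a log2 difference of -1.56 (adjusted p = 0.0462 over genes and 0.0544 over all probe sets with 1 symbol), while CXCR6+ cells did not differ past the threshold (0.55, adjusted p = 0.295). By the dimmer probe set, CXCR6+ cells were higher by 1.97 (a fold of 3.91, adjusted p = 0.0293 over probe sets) and the CXCR6- difference was 0.01 (adjusted p = 0.988). Over both subsets together the difference was -0.51 with the main probe set and 0.99 with the other, and neither passed. Foxp3, which defines regulatory T cells, read 0.327 and 0.459 in CXCR6+ cells, 0.913 and 0.816 in CXCR6- cells and 9.60 in naive cells. All Foxp3 signals of LP cells were under the array median of 1, where signals varied most between arrays, so its order between the LP subsets rests on dim values. Of the 8 measured genes of the regulatory T cell list, Foxp3 and Gpr83 were lower and Ctla4 higher in LP cells, and the list summed to 312 to 426 in LP cells and 141 in naive cells. In bulk samples fewer cells of a type and less RNA per cell cannot be told apart, and the part of these markers, and of a CD25 gate, in the Il2ra values was not tested.

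Il2rb, the beta chain shared by the IL-2 and IL-15 receptors (chr15:78479256-78511621), was lower in colitic LP cells. It read 14.7 and 7.78 in CXCR6+ cells, 4.74 and 5.21 in CXCR6- cells and 32.2 in naive cells. The naive array was above every LP array, and both CXCR6+ arrays were above both CXCR6- arrays although they differed 1.89-fold from each other. The log2 difference from naive cells was -2.14 (SE 0.45, adjusted p = 0.0379) for the LP cells together. It was -2.69 (adjusted p = 0.0334) for CXCR6- cells and -1.59 (adjusted p = 0.0882) for CXCR6+ cells. The difference between the subsets was 1.10, with a 95% confidence interval of -0.05 to 2.26 and an adjusted p of 0.761. The second probe set read 4.79, 2.57, 2.26, 2.00 and 4.80 in the same order of arrays, so that 1 CXCR6+ array reached the naive level, and its difference of -0.81 did not pass (adjusted p = 0.248).

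NK cells and innate lymphoid cells carry much of the beta chain, and their markers did not move as 1 group. Ncr1, the receptor NKp46, read 24.9 in naive cells and 0.10 to 0.69 in LP cells. Klre1 read 31.0 and 0.87 to 1.21. Klrd1 instead read 118 and 112 in CXCR6+ cells, 55.1 and 39.1 in CXCR6- cells and 53.9 in naive cells, and Kit read 41.0 and 57.6, 18.9 and 20.4, and 4.69. Eomes went the other way between the subsets, at 1.38 and 2.32 in CXCR6+ cells, 13.0 and 36.5 in CXCR6- cells and 11.0 in naive cells (log2 difference of CXCR6+ from CXCR6- cells -3.61, adjusted p = 0.564). The 6 measured genes of the list summed to 162 and 173 in CXCR6+ cells, 88.8 and 97.7 in CXCR6- cells and 126 in naive cells. The order of these sums was CXCR6+, naive, CXCR6-, and their part in the Il2rb values was not tested.

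Il15ra, the alpha chain that binds IL-15 (chr2:11705172-11733985), read 2.52 and 1.92 in CXCR6+ cells, 2.90 and 3.07 in CXCR6- cells and 5.56 in naive cells. The naive array was the highest and the LP subsets did not overlap, with CXCR6- cells above CXCR6+ cells. The log2 difference from naive cells was -1.12 (SE 0.29) and did not pass (adjusted p = 0.0567). The second probe set gave -1.21 (adjusted p = 0.0781). Between the subsets the difference of -0.44 did not pass (adjusted p = 0.799).

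Il7r, the alpha chain of the IL-7 receptor (chr15:9506159-9529941), gave signals near the top of every array. It read 347 and 369 in CXCR6+ cells, 351 and 308 in CXCR6- cells and 125 in naive cells. All LP arrays were above the naive array and the subsets overlapped. The log2 difference between LP and naive cells was 1.46 (SE 0.25, adjusted p = 0.0262), a fold of 2.75. The second probe set read 152 and 126, 142 and 87.8, and 28.6, which is a log2 difference of 2.12 (a fold of 4.35, adjusted p = 0.0339). Each subset was above naive cells, by 1.52 for CXCR6+ cells (adjusted p = 0.0333) and by 1.40 for CXCR6- cells (adjusted p = 0.0373). The difference between them was 0.12, with a 95% confidence interval of -0.52 to 0.76.

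With quantile normalization, which gives all arrays the same distribution, the Il7r difference between LP and naive cells was 0.73 (adjusted p = 0.0771). The genes whose pattern over the 5 arrays lay nearest to that of Il7r were Rpl13a, Rps18 and Cytip, at Euclidean distances of 0.0933, 0.110 and 0.111 on the gene-centred log2 scale. Rpl13a and Rps18 encode ribosomal proteins. Rpl13a read 519 and 533, 480 and 444, and 176, and was thus also highest in LP cells by a similar fold. The part of the array scale in the Il7r value was not tested.

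Il21r, the specific chain of the IL-21 receptor (chr7:125603252-125634397), read 22.8 and 29.3 in CXCR6+ cells, 20.7 and 18.1 in CXCR6- cells and 6.22 in naive cells. No group overlapped another, and the order was CXCR6+, CXCR6-, naive. The log2 difference between LP and naive cells was 1.84 (SE 0.29, adjusted p = 0.0231), a fold of 3.59, and with quantile normalization it was 2.40 (adjusted p = 0.0177). It was 2.05 for CXCR6+ cells (adjusted p = 0.0266) and 1.64 for CXCR6- cells (adjusted p = 0.0368). Between the subsets it was 0.42 and did not pass (adjusted p = 0.804).

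Il4ra, the alpha chain of the IL-4 and IL-13 receptors (chr7:125552271-125579474), had 3 probe sets that disagreed. The brightest read 11.8 and 9.75 in CXCR6+ cells, 8.34 and 8.97 in CXCR6- cells and 24.0 in naive cells. The naive array was above all LP arrays, with a log2 difference of -1.32 (SE 0.26, adjusted p = 0.0351). The second read 2.01 and 0.714, 2.27 and 0.997, and 3.28, with arrays of the same subset differing by over 2-fold, and its difference of -1.29 did not pass (adjusted p = 0.302). The third read 0.692 to 1.41 in LP cells and 0.371 in naive cells, all below or near the median signal of an array, and pointed the other way (1.26, adjusted p = 0.0938). With the mean of the probe sets the difference was -0.45 and with quantile normalization -0.71, and neither passed. B cells also carry this chain, and the B cell marker Ighm read 123 in naive cells and 0.92 to 2.45 in LP cells. The part of B cell RNA in the Il4ra value was not tested.

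**Figure D2:**
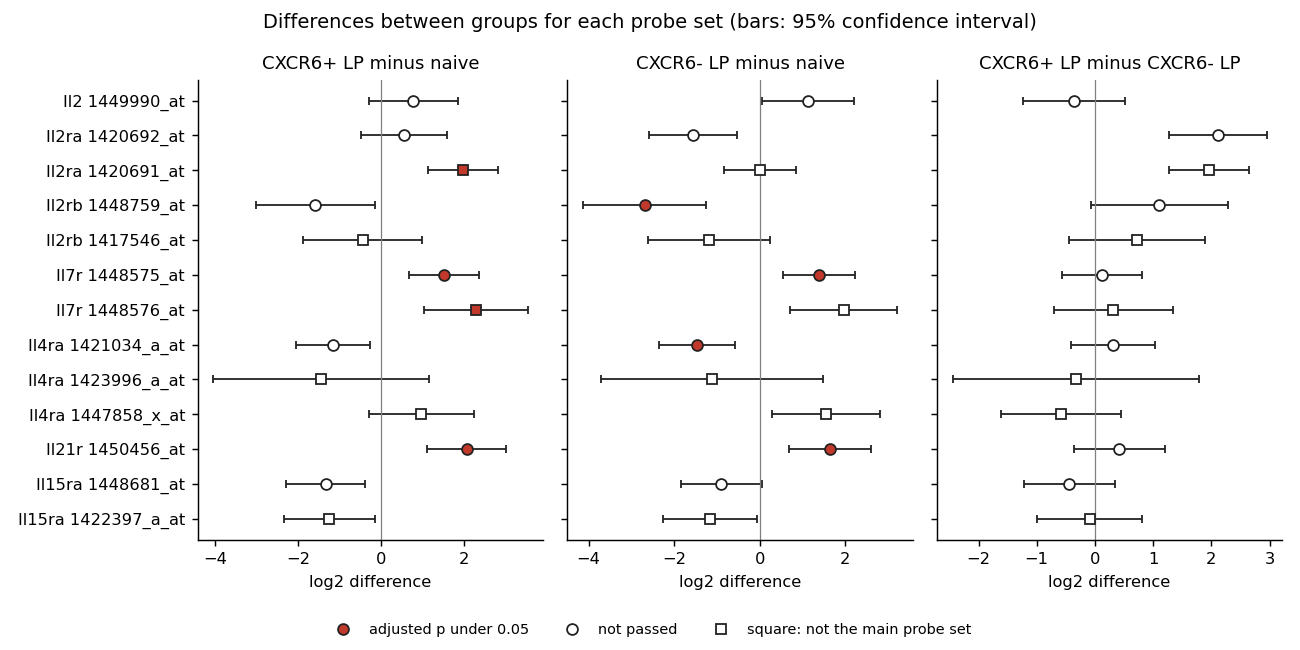
Log2 differences of the 13 probe sets in 3 comparisons, with 95% confidence intervals from limma over all probe sets with 1 symbol. Circles are main probe sets, squares are others, and red marks an adjusted p under 0.05. Both Il2ra probe sets lie near 2 in the comparison of the subsets, where no probe set passed, while against naive cells both lie above 0 for CXCR6+ cells (0.55 and 1.97), and for CXCR6- cells the main one lies at -1.56 and the other at 0.01.

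When each subset was set against naive cells, CXCR6+ cells differed from naive cells in 2 of the 7 members, Il7r and Il21r, both higher. The background was 13.2% of genes higher and 15.3% lower. CXCR6- cells differed from naive cells in 5 members, with Il7r and Il21r higher and Il2ra, Il2rb and Il4ra lower, against a background of 12.8% of genes higher and 16.7% lower. These comparisons share the naive array and 1 fit, so their counts are not independent, and a call in 1 subset only does not show that the subsets differ. Nor did the direct comparison pass for any of the members called in CXCR6- cells alone.

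Between CXCR6+ and CXCR6- cells, no member passed by limma, and no gene of the array did (0% higher and 0% lower of 18193). At an unadjusted p under 0.05 by limma, 1 member differed, Il2ra, beside 3.37% of all genes higher and 3.18% lower in CXCR6+ cells. Il2ra was also the 1 member under it in the test that the methods name, beside 846 of 18193 genes higher and 437 lower. No member passed there after adjustment. The arrays of the subsets did not overlap for 5 of the 7 members, Il2ra, Il2rb, Il4ra, Il21r and Il15ra, beside 39.5% of all genes. Of these 5, Il15ra was lower and the others higher in CXCR6+ cells. The median log2 difference of the members was 0.31, beside 0.08 over all genes. Of the 8 marker lists, 4 had sums that overlapped between the subsets and 4 did not. The latter were those of T cells, regulatory T cells, CD8 T cells and NK and innate lymphoid cells, whose sums were higher in CXCR6+ cells. Their median log2 differences were 0.42, -0.35, 0.16 and -0.46 in that order. The sums are weighted by the brightest genes, and for regulatory T cells and NK and innate lymphoid cells the median had the opposite sign. The part of the marker lists in the member values was not tested.

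The genes whose pattern over the 5 arrays was most like that of Il2ra were Ramp1, Gpr34 and Csf1, at distances of 0.497, 0.651 and 0.849. Ramp1, a partner protein of a peptide hormone receptor, read 8.78 and 13.4 in CXCR6+ cells, 3.21 and 3.06 in CXCR6- cells and 11.0 in naive cells. For Il2 they were Zfp715, Ifih1 and Cav1, at 0.160, 0.179 and 0.204. Each search covered the genes of mean signal 4 or more (7551 for Il2ra), and such likeness over 5 arrays is a description only.

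The other genes of the pathway were read from 8 lists of 61 genes, of which 59 were measured. Between LP and naive cells, 12 were higher, 8 lower and 39 did not pass, with a median log2 difference of 0.03. These shares lay near the background given above.

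Among the upstream signals, none of the 7 other cytokines of the family and TSLP passed, and 2 had an unadjusted p under 0.05. The largest difference was that of Il9, a T cell growth factor, which read 0.101 to 0.435 in LP cells and 0.031 in naive cells, far below the median signal (log2 difference 2.61, adjusted p = 0.103). Of the 4 other receptor chains, Il9r passed and was lower in LP cells (-2.99, adjusted p = 0.0148), at signals of 0.018 to 0.049 against 0.256. These signals were far below the array median, so that both genes rest on dim probe sets.

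Below the receptor, of 6 measured JAK and STAT genes 2 were higher and 1 lower in LP cells. Jak3, the kinase bound to the common gamma chain, read 15.6 and 13.0 in CXCR6+ cells, 9.89 and 11.6 in CXCR6- cells and 4.45 in naive cells (log2 difference 1.47, adjusted p = 0.0305). Stat3, which IL-21 activates, was higher by 1.25 (adjusted p = 0.0374) and its 3 other probe sets of signal 1 or more had the same sign. Stat5a, which IL-2 and IL-7 activate, read 5.15 to 6.30 in LP cells and 63.8 in naive cells (-3.53, adjusted p = 0.0119). A second, dim Stat5a probe set pointed the other way (1.02, adjusted p = 0.0702). Stat5b, its close relative, read 18.9 to 31.7 in LP cells and 33.2 in naive cells and did not pass (-0.38, adjusted p = 0.373), while its second probe set was higher in LP cells (2.67, adjusted p = 0.0255 over probe sets). Stat5a and Stat5b are near-identical paralogues, and cross-hybridization between them was not tested.

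Of 8 adaptors and PI3-kinase genes, 2 were lower and none higher in LP cells. Sos1, an exchange factor of RAS, had a log2 difference of -2.07 (adjusted p = 0.0159), and Shc1, an adaptor of the beta chain, of -1.86 (adjusted p = 0.0236). Of 6 feedback inhibitors, 2 were higher and none lower. Socs3, which blocks JAK kinases, read 113.5, 86.5, 119 and 125 in LP cells and 29.1 in naive cells (1.92, adjusted p = 0.0214). Ptpn2, a phosphatase that acts on JAK and STAT proteins, had a difference of 1.85 (adjusted p = 0.0201), but its next brightest probe set gave 0.16 (adjusted p = 0.687).

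Of the 11 IL-2 and STAT5 target genes, 3 were higher and 3 lower in LP than in naive cells. Bcl2, an inhibitor of cell death, read 53.8 to 89.2 in LP cells and 17.6 in naive cells (2.04, adjusted p = 0.0337), yet its 4 other probe sets had differences below 0 and none passed. Mcl1, of the same family, and Prdm1, the repressor BLIMP-1, were the other higher genes, but the 5 other Mcl1 probe sets ranged from -1.45 (adjusted p = 0.0375) to 0.66. Myc, a driver of growth (-1.68, adjusted p = 0.0376), Lta, the cytokine lymphotoxin alpha (-1.54, adjusted p = 0.0332), and Ccnd3, a cyclin, were lower.

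**Figure D3:**
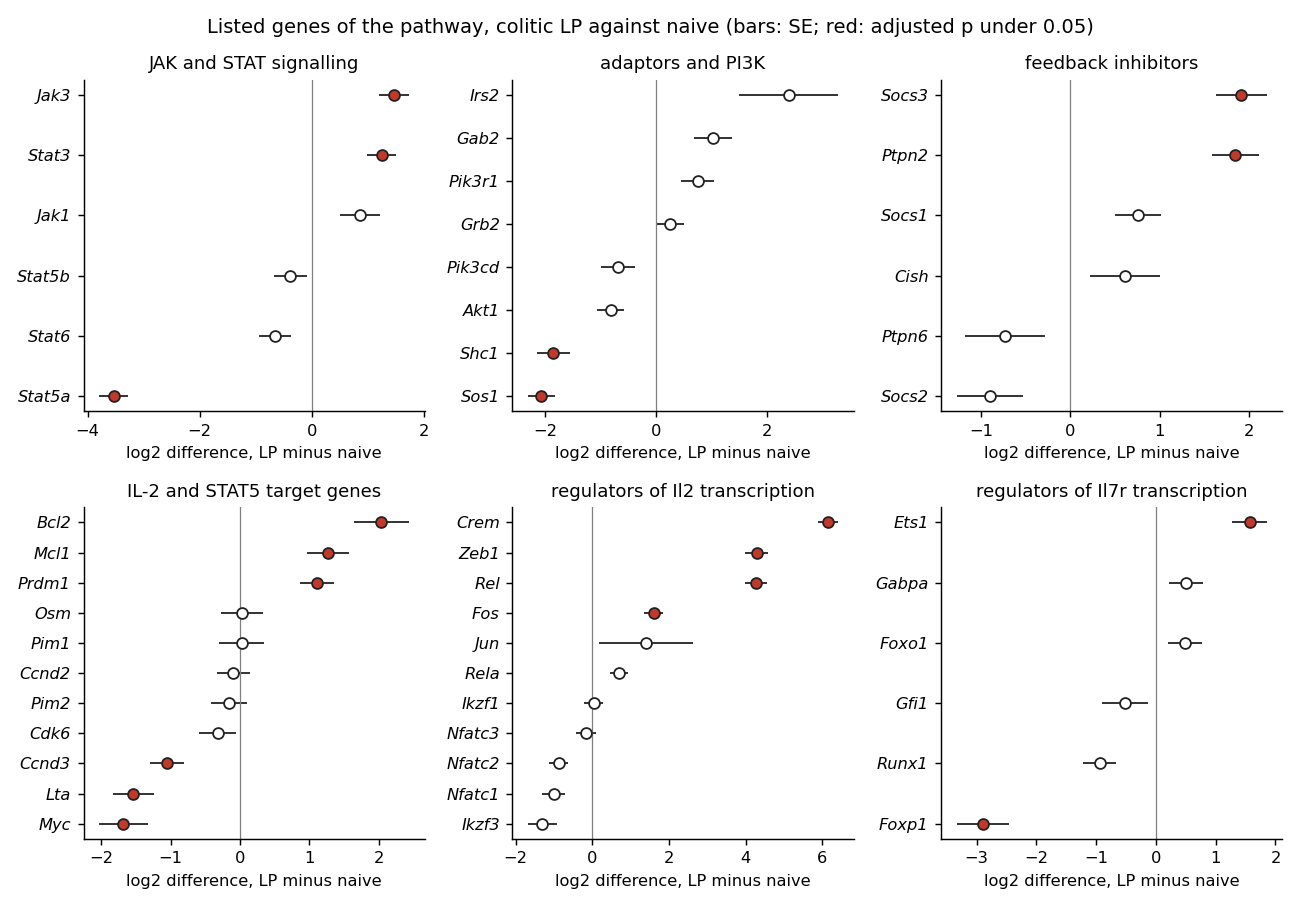
Log2 difference between LP and naive cells of each measured gene of 6 pathway lists, with the SE from limma as bars. Red points had an adjusted p under 0.05. Crem, Zeb1 and Rel lie above 4 and Stat5a and Foxp1 below -2.5, each by its main probe set, and the target genes lie on both sides of 0.

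Of 11 measured regulators of Il2 transcription, 4 were higher and none lower in LP cells. Crem, a CRE-binding factor that represses Il2, read 208 and 239 in CXCR6+ cells, 213 and 184 in CXCR6- cells and 2.96 in naive cells (6.15, adjusted p = 0.0119). Its second probe set gave 4.89 (adjusted p = 0.0150). Rel, an NF-kB subunit that activates Il2, read 15.4 to 20.3 in LP cells and 0.939 in naive cells (4.27, adjusted p = 0.0119). Zeb1, a repressor of Il2, read 58.6 to 101 and 3.89 (4.29, adjusted p = 0.0119), but its next brightest probe set gave -1.15 and did not pass. Fos, an AP-1 subunit, was the other higher gene. Il2 itself, as given above, did not pass.

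Of 6 regulators of Il7r transcription, 1 was higher and 1 lower. Foxp1, which represses Il7r, read 7.91 to 14.1 in LP cells and 75.7 in naive cells (-2.90, adjusted p = 0.0218). Of its other probe sets of signal 1 or more, 1 pointed the other way with a difference of 0.18. Ets1, which activates Il7r in T cells, read 174 to 274 and 76.3 (1.57, adjusted p = 0.0304), but its other probe sets did not pass. Foxo1, a further activator, did not pass by its main probe set, while its next brightest gave 1.92 (adjusted p = 0.0297 over probe sets). Over all 59 listed genes measured, 39 of 83 other probe sets of signal 1 or more had the opposite sign to the main one between LP and naive cells. Between the LP subsets 18 of these 83 did.

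Between CXCR6+ and CXCR6- cells none of the 59 genes passed. Within the IL-2 and STAT5 target list, 6 of 11 had an unadjusted p under 0.05, all higher in CXCR6+ cells, beside the 3.37% of all genes given above. They were Prdm1, Lta, Ccnd3, Pim1, Pim2 and Ccnd2. In the limma fit over all probe sets with 1 symbol, the main ones of Pim1 and Ccnd2 were just above 0.05 (unadjusted p = 0.0508 and 0.0571). Prdm1 read 27.5 and 25.2 in CXCR6+ cells and 10.4 and 9.49 in CXCR6- cells (log2 difference 1.41, adjusted p = 0.551). Lta read 4.83 and 6.43 against 2.23 and 1.96 (1.41, adjusted p = 0.590), and Ccnd3 read 18.1 and 20.3 against 8.13 and 8.46 (1.21, adjusted p = 0.564). The 2 other Ccnd3 probe sets pointed the other way, with differences of -0.24 and -0.42. By their main probe sets the subsets did not overlap for any of these 6 genes, beside 39.5% of all genes, and the order of their subsets was that of Il2ra. Both follow from naming genes by a low p that were higher in CXCR6+ cells, so neither adds to the values above. The list's median was 0.63, beside 0.08 over all genes. Cish, a feedback inhibitor that STAT5 induces, read 41.5 and 33.9 against 24.8 and 15.3 (0.94, adjusted p = 0.761). Bcl2, Myc and Osm of the target list had differences below 0, so that the list did not move as 1 group. The genes in this paragraph were named after their values had been seen, and no set test was run.

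**Figure D4:**
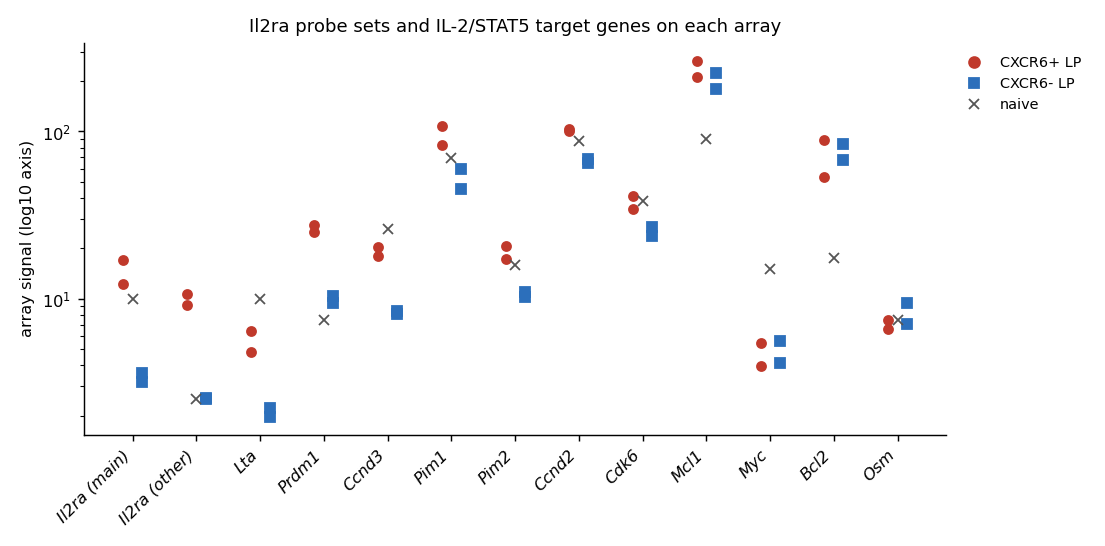
Signals of both Il2ra probe sets and of the 11 IL-2 and STAT5 target genes on each array, on a log10 axis. Circles are CXCR6+ arrays, squares CXCR6- arrays and crosses the naive array, and the target genes are ordered by the difference between the subsets. Both Il2ra probe sets and Lta, Prdm1, Ccnd3, Pim1, Pim2 and Ccnd2 show both CXCR6+ arrays above both CXCR6- arrays, while the naive array has no fixed place. These target genes are the ones with an unadjusted p under 0.05 by limma over genes, so their separation follows from that choice.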

How the data were processed

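RNA of 5 samples was hybridized to arrays, in the groups that the labels give. The deposited intensity values are linear signals that the authors scaled to a median of 1 per array, with GeneSpring 11.5 by the methods and RMA by the submitters' notes. How background was corrected, and whether probe sets were filtered, is not given in the sources used here. Different RNA kits are named in the labels and the methods. Of 45101 probe sets, those with several symbols (932, 1 of which names Il2 and a second gene), with none (9211) and 13 controls were left out. By Entrez ID, 34741 matched RefSeq. The probe set with the highest mean over the 5 arrays stood for its gene. Signals were log2 transformed, 0 becoming 0.001, with no filter.

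A model of 3 groups was fitted with limma 3.58.1 in R 4.3.3 (two-sided, adjusted by Benjamini-Hochberg over 18193 genes, or all probe sets with 1 symbol), with 1.678 prior and 2 residual degrees of freedom. The single naive array took its spread from the LP groups. LP against naive used the mean of both subsets. The script was tested on simulated data. Named were all members, the 3 largest called differences of each list (or the largest where none passed) and the 3 nearest patterns of Il2, Il2ra and Il7r, and any further gene was chosen after its values were seen. The members and lists were chosen with earlier results of these data known. Figures used matplotlib 3.10.9 in Python 3.11.15. Alternatives are given in the closing section.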

Additional observations from a re-analysis of the deposited data

How the results depend on the processing

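Of 420 differences of single members across alternatives, 308 kept their direction and side of the threshold, 86 fell short of it, 22 passed it and 4 changed sign. The changes of sign were Il2ra between LP and naive cells with the mean of the probe sets (0.24) and with quantile normalization (0.079), Il7r between the subsets with quantile normalization (-0.046) and Il4ra between the subsets with the mean of the probe sets (-0.20). Of these, the mean of the probe sets differs by construction in weighting dim probe sets equally, and otherwise the cause was not tested.

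Counts over all genes moved between the alternatives too. For LP against naive cells, 2756 genes were higher and 3414 lower of 18193 in the main fit. These were 2422 and 4421 of 10916 with a filter at the 40th percentile and 2817 and 5086 with the log2 of the signal plus 1. They were 3545 and 4757 with a variance trend and robust fitting, 1988 and 2578 with the mean of the probe sets and 2770 and 2308 with quantile normalization. The count of 4 members became 6 with the filter, with the log2 of the signal plus 1 and with the variance trend, 2 with the mean of the probe sets and 1 with quantile normalization, which moved the median of all genes from -0.14 to -0.0043. A fit without 1 LP array leaves 1 array in a subset and fewer residual degrees of freedom. The calls did not hold in such fits, and far fewer genes or none were called over the whole array. With the filter, 2389 of 10916 genes were higher and 3961 lower in CXCR6+ than in naive cells, beside 2409 and 2792 of 18193 in the main fit. For CXCR6- cells these were 2130 and 4350, beside 2330 and 3042. For CXCR6+ against naive cells, the count of 2 members became 5 with a filter at the 40th percentile. It was also 5 with the log2 of the signal plus 1 (2648 of all genes higher and 4616 lower) and with a variance trend and robust fitting (3353 and 4265). With quantile normalization it was 1 (2286 and 1905). As above, the calls, of members and of other genes, did not hold when 1 LP array was left out. For CXCR6- against naive cells, the count of 5 became 7 with the filter and with the log2 of the signal plus 1, 6 with the variance trend, 2 with the mean of the probe sets, 1 with quantile normalization and 2 with all signals under 1 raised to 1, and was 0 to 0 when 1 LP array was left out. With the test that the methods name, the unadjusted count for LP against naive cells was 4, beside 3454 of 18193 genes higher and 4382 lower. After Benjamini-Hochberg adjustment it was 3, beside 2027 and 2669. The unadjusted count was 1 for CXCR6+ against CXCR6- cells, beside 846 and 437. It was 1 for CXCR6+ against naive cells, beside 1481 and 1707, and 2 for CXCR6- against naive cells, beside 1605 and 2058. After adjustment the last 2 were 0 and 0, beside 12 and 22 genes and 9 and 7 genes.

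Replicate numbers of the LP groups are shared in the labels. The differences between replicates 1 and 2 correlated between the groups at r = 0.02 (rho = 0.06) across genes. With 1 such difference per group, this cannot show whether arrays of the same number came from the same mice, which is not stated. With the replicate block, 0 members were called in LP against naive cells, beside 1705 of all genes higher and 1807 lower. In CXCR6+ against naive cells and in CXCR6- against naive cells 0 members were called, and 0 of all genes. Signals under 1 varied most, with a median absolute log2 difference of 0.79 between CXCR6+ arrays, beside 0.24 for genes over 4, and this limits the dim probe sets of Il4ra, Il9 and Il9r.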
